A study of Mus musculus with 18 samples.

Results

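Cytosolic ribosomal protein genes encode the proteins of the large and small subunits of the ribosome that translates most cellular mRNA. They were chosen by symbol (Rpl or Rps with a number, Rplp0, Rplp1, Rplp2 and Rpsa, without pseudogenes and S6 kinases) and by a mean read count of at least 50 over all libraries. This gave 81 of the 37991 genes counted. The 85 genes with such a symbol included 4 that fell below this minimum, namely Rps4y2 with a mean count of 5.78, Rpl39l with 4.28, Rpl3l with 0.50 and Rpl10l with 0. The member nearest above the minimum was Rps19bp1, with a mean count of 132. Of the 81 genes, 48 carried Rpl names and 33 Rps names. They included 76 genes for standard subunits and 5 others that the symbols also took in, namely the paralogs Rpl7l1, Rpl22l1, Rpl36al and Rps27l, and Rps19bp1, which encodes a nucleolar protein that binds Rps19.

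RNA-seq was measured in CD4+ T cells enriched from spleens of Tg4-H2u mice, which carry a transgenic TCR specific for a peptide of myelin basic protein. Tolerized mice (T) had received repeated subcutaneous injections of the 4Y form of this peptide at escalating doses, and naive mice (N) had received PBS on the same schedule. There were 3 libraries in each of 6 groups. N0 and T0 cells were taken at rest, after a last injection of PBS. NAg and TAg cells were taken 2 h after a last injection of the peptide antigen (Ag), and NPI and TPI cells (PBSPI in the sample names of the naive group) were treated for 2 h in culture with PI, which is phorbol myristate acetate plus the calcium ionophore A23187. The study used young adult male and female mice. All mice carried the TCR transgene, and no library of cells cultured without PI was analysed here.

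Ribosomal protein genes are transcribed at high and coordinated rates, since their products are assembled together into each ribosome. Their mRNAs carry a 5' terminal oligopyrimidine (TOP) tract, a C at the cap followed by a run of C and T, through which mTOR and the RNA-binding protein LARP1 set how much of each mRNA is stored or translated. A T cell that leaves rest grows before it divides, and new ribosomes are a large part of that growth.

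Libraries held between 10758571 and 24119489 counted reads, with the most in the PI groups. The 8 T cell markers were read in every library. Markers of other cells were present at low levels in this enriched population and differed between groups. The summed level of 8 neutrophil markers was between 58.5 and 339 normalized counts in the N0, NAg and NPI libraries, between 1684 and 3651 in T0 and TAg, and between 396 and 673 in TPI. Erythroid markers reached 1816 in T0 replicate 1 and 1076 in TAg replicate 3, and at most 335 elsewhere. Reads of Y-linked genes showed the mice behind the libraries to be of different sex. All N0 and NAg libraries, T0 replicate 3 and TAg replicates 1 and 2 came from females by this measure, and all NPI and TPI libraries and the remaining T0 and TAg libraries from males. In bulk RNA, fewer cells of a type and less RNA per cell cannot be told apart.

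A TOP tract was sought in the DNA at the annotated starts of these genes. RefSeq promoters (mouse build GRCm38.p6) were found for 60 of the 81 genes. A C at the annotated start followed by at least 4 more C or T stood at a start of 13 of these 60 genes (21.7%) and of 813 of 27025 genes in all (3.01%). When the tract could begin up to 5 bases to either side of the annotated start, the shares were 48.3% and 21.2%. The following windows hold 15 bases before and 15 from the annotated start on, with the tract in capitals. They are shown for a selection of genes. Of the 7 with a tract, Rps27 and Rps21 responded least to Ag in naive cells. The 6 without it include the genes that responded most, and Rpl7l1, Rps19bp1, Rps27l and Rpl22l1 among them are not standard subunits. Rps2, Rps27l and Rpl22l1 do have a tract that begins within 5 bases of the start. The selection leaves out Rpl13a, Rpl37a and Rps16. These changed little after Ag in naive cells and have no tract at the annotated start.

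Rpl15 (chr14:18270972-18271001, minus strand): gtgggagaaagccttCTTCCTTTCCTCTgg
Rpl35 (chr2:39005117-39005146, minus strand): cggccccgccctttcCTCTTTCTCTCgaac
Rps10 (chr17:27635230-27635259, minus strand): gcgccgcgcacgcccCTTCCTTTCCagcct
Rps6 (chr4:86857353-86857382, minus strand): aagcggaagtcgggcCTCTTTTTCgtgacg
Rpl38 (chr11:114668565-114668594, plus strand): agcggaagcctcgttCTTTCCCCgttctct
Rps27 (chr3:90213634-90213663, minus strand): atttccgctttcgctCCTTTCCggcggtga
Rps21 (chr2:180257364-180257393, plus strand): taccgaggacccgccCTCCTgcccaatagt
Rpl10a (chr17:28328456-28328485, plus strand): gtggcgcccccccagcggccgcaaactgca
Rps2 (chr17:24720048-24720077, plus strand): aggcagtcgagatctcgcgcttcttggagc
Rpl7l1 (chr17:46782642-46782671, minus strand): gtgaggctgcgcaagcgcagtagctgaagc
Rps19bp1 (chr15:80264292-80264321, minus strand): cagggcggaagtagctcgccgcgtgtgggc
Rps27l (chr9:66946071-66946100, plus strand): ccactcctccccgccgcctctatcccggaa
Rpl22l1 (chr3:28805493-28805522, plus strand): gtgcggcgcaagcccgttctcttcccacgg

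An annotated start can lie some bases away from the cap that cells use, so a window without the tract says only that these letters do not begin at this base. The ETS-type motif CCGGAAG, on either strand, was in the 300-base promoters (250 bases before the start and 50 after) of 23 of the 60 genes (38.3%) and of 9.93% of all genes. The YY1-type motif GATGGCGG, on either strand, was in those of 3 of the 60 genes and of 1.97% of all. Members with and without a tract at the start had similar median log2 fold changes in the comparisons that follow, with 0.58 and 0.57 in NAg against N0, 0.90 and 0.97 in NPI against N0, and -0.35 and -0.32 in T0 against N0.

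The 81 genes took between 3.04% and 4.97% of all counted reads of a library. The share was 3.80% ± 0.23 (SD, n = 3) in N0, 4.12% ± 0.17 in NAg and 4.81% ± 0.15 in NPI. In tolerized cells it was 3.18% ± 0.15 in T0, 3.73% ± 0.23 in TAg and 3.32% ± 0.09 in TPI. The highest T0 library, at 3.34%, lay below the lowest N0 library, at 3.57%, and all TPI libraries lay below all NPI libraries. The ranges of N0 and NAg overlapped, as did those of T0 and TPI, so that neither pair was apart beyond the spread between libraries. These shares are of all reads, and the 50 other genes with the most reads took 10.1% ± 0.16 of N0 libraries and 19.0% ± 0.32 of NPI libraries, so a gene could rise against most other genes and hold the same share.

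**Figure D1:**
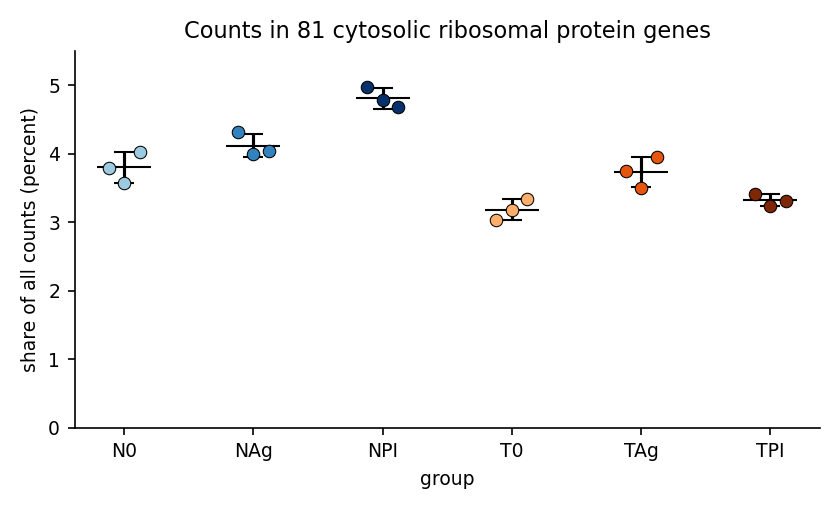
Share of all counted reads that fell in the 81 ribosomal protein genes, in percent, for each of the 18 libraries (points) by group, with the group mean (line) and SD (bars). The share is highest in NPI, at 4.81%, and lowest in T0, at 3.18%, and all T0 and TPI libraries lie below all N0 and NPI libraries.

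Within a library the members ranged widely. Per kilobase of merged exons, the mean normalized count in N0 ran from 68.1 for Rps19bp1 to 22962 for Rplp1, a protein of the acidic stalk that contacts the elongation factors, with a median of 2766. Rps27, a small subunit protein with a zinc finger, was next at 21299.9. The 3 lowest genes in N0 were all among the 5 without a standard subunit, with Rps27l at 160 and Rpl7l1 at 223. The order changed little between groups. Spearman's rho with the order in N0 over the 81 genes was 0.997 in T0, 0.986 in NPI, 0.984 in TPI, 0.980 in TAg and 0.975 in NAg, as a description over genes that share their libraries. Levels per kilobase depend on which exons are counted, and rho between merged exons and the median length of coding transcripts was 0.707 in N0.

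Further features were not used in the choice of the genes. In the annotation of the build that the counts use (NCBIM37), 30 of the 81 genes (37.04%) held a gene for a small nucleolar RNA (snoRNA) inside them, 58 in all, against 1.20% of protein-coding genes. snoRNAs guide the modification of ribosomal RNA. Pseudogene copies with the same name stem numbered 163 for 52 of the members. Their reads came to between 0.0156% and 0.0259% of a library. Reads that fit a gene and its copy equally well could not be told apart, and how the authors treated such reads is not given in the sources used here.

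After antigen injection nearly all members were higher in naive cells. In NAg against N0, 75 of the 81 genes rose and none fell by edgeR's quasi-likelihood test (Benjamini-Hochberg adjusted p under 0.05 over 17240 genes), where 32.1% of all genes tested rose and 33.4% fell. The median log2 fold change was 0.57, or 1.49-fold, with quartiles of 0.42 and 0.68, and the median of all genes tested was 0.00. The rises were small. At least 2-fold was reached by 6 genes, of which 1 was a standard subunit gene, Rpl10a. By the same rule 14.2% of all genes tested rose and 16.2% fell. All 3 NAg libraries lay above all 3 N0 libraries for 75 of the 81 genes, as for 33.5% of all genes tested.

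Tolerized cells gave a like picture. In TAg against T0, 78 genes rose, against 29.9% of all genes tested, and none fell, against 29.8%. The median log2 fold change was 0.59, with the median of all genes at -0.05. Again 6 genes reached 2-fold, of which 2 were standard subunit genes. By that rule 12.1% of all genes tested rose and 11.3% fell. The groups did not overlap for 72 of the 81 genes, as for 31.7% of all genes tested. The difference between both responses was tested for each gene as an interaction. None of the 81 genes passed, none had an unadjusted p under 0.05, and the largest differences among standard subunits were 0.21 for Rpl37 and -0.20 for Rps13. By comparison, the difference (tolerized minus naive log2 fold change) was positive and passed for 14.6% of all genes tested and negative for 7.09%. Without T0 replicate 3, the female T0 library, 8 members passed with a positive difference. The median difference over the members was 0.02 in all libraries and -0.17 in female libraries. The median rise in TAg against T0 was 0.40 in females, with 1 T0 library, and 0.76 in males, with 1 TAg library. Over the 81 genes, which share no libraries between the comparisons, the fold changes in naive and tolerized cells had a Pearson's r of 0.967 and a Spearman's rho of 0.920.

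**Figure D2:**
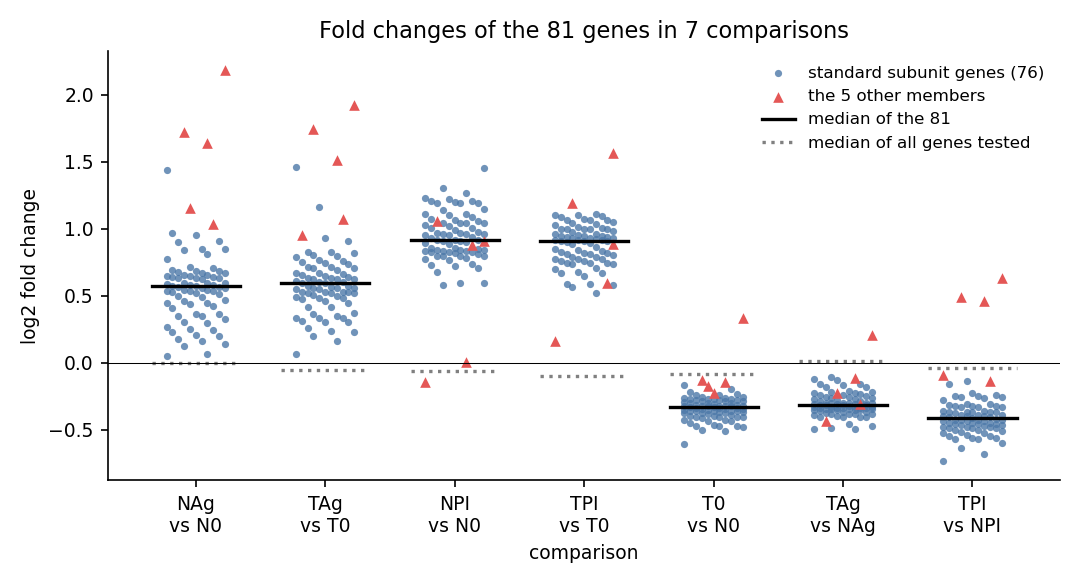
Log2 fold changes of the 81 genes in 7 comparisons of groups, as points for the 76 standard subunit genes and triangles for the other 5, with the median of the 81 (solid line) and of all 17240 genes tested (dotted line). Medians are 0.57 and 0.59 after Ag, 0.91 and 0.91 after PI, and between -0.31 and -0.41 for tolerized against naive cells.

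Among standard subunits Rpl10a, which forms the mobile stalk at the tRNA exit site of the large subunit, rose most after Ag. Its normalized counts were 3057, 2939 and 3237 in N0 and 8282, 8242 and 8518 in NAg, a log2 fold change of 1.44 ± 0.07 (SE; adjusted p = 2.02e-15 in edgeR's test). In T0 they were 2321, 2350 and 2727 and in TAg 6980, 6554 and 6775, a log2 fold change of 1.46 ± 0.07. No library at rest came near those after Ag in either state. Rpl10a lies on chromosome 17 (28465416 to 28467977, plus strand, NCBIM37), has 2 annotated pseudogenes whose reads equalled 3.03% of its own, and overlaps no other gene's exons. Rps2, a small subunit protein at the mRNA entry, was the next standard subunit, with 4844, 4618 and 5139 in N0 and 9161, 9497 and 9967 in NAg, a log2 fold change of 0.97 ± 0.07, and one of 1.16 ± 0.07 in tolerized cells. Its exons overlap those of Snhg9 and Snora64.

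At the other end were genes that changed little. Rps27 had 7395, 7007 and 7644 normalized counts in N0 and 8042, 7664 and 7164 in NAg, and a log2 fold change of 0.05 ± 0.09 (adjusted p = 0.621). In tolerized cells the value was 0.07 ± 0.09 (adjusted p = 0.546), from 5472, 5914 and 7295 in T0 to 6561, 6165 and 6825 in TAg. The groups overlapped in both states. The other members that did not pass in NAg against N0 were Rps21 (0.06), Rpl13a (0.12), Rpl37a (0.14), Rps29 (0.16) and Rps16 (0.17), and in TAg against T0 Rpl13a (0.16) and Rps28 (0.23). The lowest that passed were Rpl17, Rplp1 and Rps23 in naive cells, with log2 fold changes of 0.20, 0.21 and 0.23, and Rpl39, Rpl17 and Rps21 in tolerized cells, with 0.20, 0.23 and 0.26. Each of these 6 calls was lost in at least 4 of the 6 fits that left out 1 library.

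Genes at high levels per kilobase in N0 tended to rise less after Ag. Over the 76 standard subunit genes, the log2 fold change in NAg against N0 and the N0 level per kilobase had a Spearman's rho of -0.498. The N0 libraries also enter that fold change, so these values are not independent. With the fold change in TAg against T0, which shares no library with N0, rho was -0.432. Both are descriptions over genes that share their libraries. The length of the coding sequence had rho of 0.239 and 0.270. The length of the merged exons, by which the level is divided, had rho of 0.318 and 0.264. Its part in the values for the level was not tested. The 45 large subunit genes had a median log2 fold change of 0.58 in naive cells and the 31 small subunit genes 0.46, and in tolerized cells 0.62 and 0.49. The quartiles of the subunits overlapped, with 0.49 to 0.67 and 0.34 to 0.61 in naive cells.

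The sum of T cell marker levels differed with Ag as well, at 34404 to 36883 normalized counts in N0 and 16441 to 18925 in NAg, and its part in these rises was not tested. With scores of other cells' markers as covariates the median rise was 0.57 in naive and 0.59 in tolerized cells. Without scaling for composition, by library totals alone, the median of all genes fell by 0.42 and 0.40 on the log2 scale and that of the members was 0.17 and 0.27. Relative to all genes the members were then 0.59 and 0.66 higher, against 0.57 and 0.65 in the TMM-scaled fit, but 43 members passed as higher and 9 as lower in NAg against N0.

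**Figure D3:**
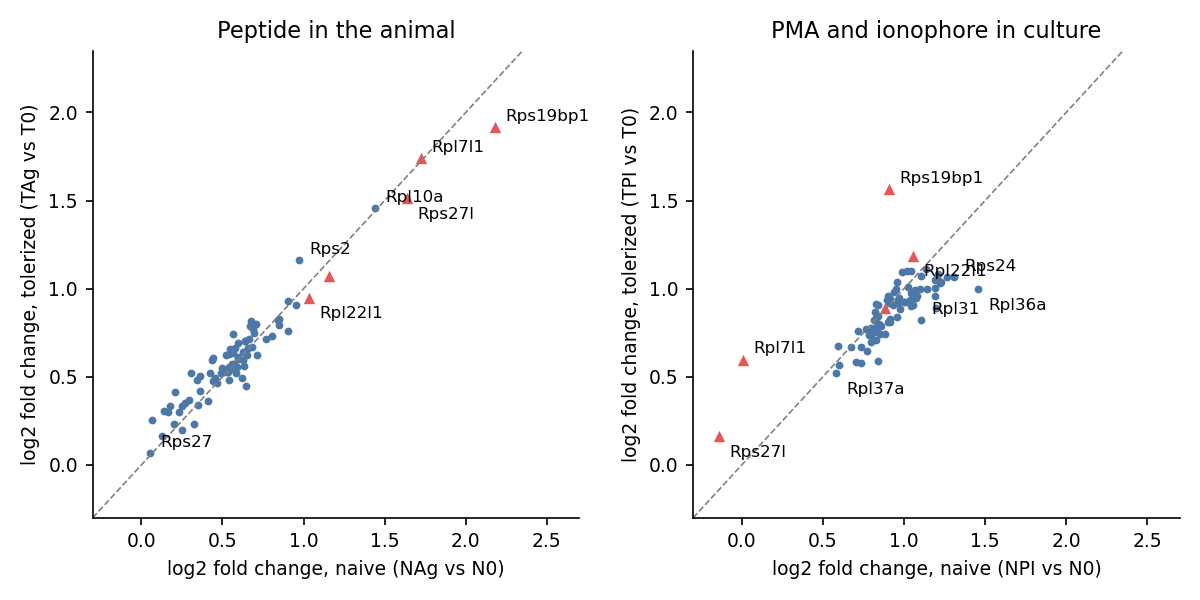
Log2 fold change of each of the 81 genes in naive cells (x axis) and tolerized cells (y axis), after peptide injection (left) and after PI in culture (right), with standard subunits as points, the other 5 as triangles and equality as a dashed line. Points follow the line after Ag, where Spearman's rho is 0.920, and Rpl7l1 and Rps19bp1 lie above it after PI.

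PI treatment was also followed by higher levels of nearly all members. In NPI against N0, 79 of 81 genes rose, against 28.6% of all genes tested, and none fell, against 32.7%. The median log2 fold change was 0.91 (1.89-fold), with quartiles of 0.83 and 1.06 and the median of all genes at -0.06. Of these, 29 rose at least 2-fold, where 10.1% of all genes tested rose and 10.3% fell by as much, and 18 did so without N0 replicate 2. In TPI against T0, 80 genes rose, against 32.0% of all genes tested, and none fell, against 36.3%. The median was 0.91 with the median of all genes at -0.10, and 19 rose at least 2-fold, where 13.3% of all genes tested rose and 13.7% fell by as much. That count was 4 without T0 replicate 1, 12 without T0 replicate 2 and 30 without T0 replicate 3. All 76 standard subunit genes rose in both states. The groups did not overlap for 79 genes in naive and 80 in tolerized cells, as for 31.2% and 33.7% of all genes tested.

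NPI and N0 libraries came from mice of different sex, and treated cells were cultured while resting cells were not, so that PI, culture and sex cannot be told apart in NPI against N0. Within males, TPI against the 2 male T0 libraries gave a median of 1.01, and there PI and culture still cannot be told apart. By library totals the median of all genes fell by 0.65 in naive and by 0.92 in tolerized cells, and the members' medians were 0.34 and 0.11. In TPI against T0, 26 members then passed as higher and 7 as lower. Relative to all genes the members were 0.99 and 1.03 higher on this scale and 0.97 and 1.01 higher on the TMM scale. The share of mitochondrially encoded reads also differed, at 0.87% ± 0.02 in N0 and 2.33% ± 0.23 in NPI, and its part was not tested.

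The largest rises after PI in naive cells were those of Rpl36a, Rps24 and Rps28. Rpl36a, an X-linked large subunit gene (X, 131120193 to 131122601, plus strand, NCBIM37), had 822, 844 and 909 normalized counts in N0 and 2730, 2239 and 2091 in NPI, a log2 fold change of 1.45 ± 0.10 (adjusted p = 1.66e-11). It had 619, 734 and 780 in T0 and 1587, 1278 and 1384 in TPI, a log2 fold change of 1.0 ± 0.10. The groups did not overlap in either state. In tolerized cells Rps19bp1 (1.56), Rpl22l1 (1.19) and Rps10 (1.11) had the largest. The smallest rises in naive cells were those of Rpl37a (0.58), Rps14 (0.60) and Rps16 (0.60), and among the smallest in tolerized cells were those of Rpl37a (0.52) and Rps16 (0.57).

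Rps27, which hardly moved after Ag, was among the genes that rose after PI, to 14700, 14886 and 15242 normalized counts in NPI, a log2 fold change of 1.02 ± 0.09 (adjusted p = 4.75e-10). In TPI it was 13935, 11833 and 11884, a log2 fold change of 1.01 ± 0.09. Rps21, a small subunit protein, stood at 2421, 2106 and 2458 in N0, at 2552, 2526 and 2227 in NAg and at 5828, 5096 and 5048 in NPI. These genes were therefore near their resting level in NAg and near 2-fold above it in NPI. Over the 76 standard subunit genes, the fold changes of NAg against N0 and of TPI against T0, which share no libraries, had a Spearman's rho of 0.211, and those of TAg against T0 and NPI against N0 one of 0.019. For the PI responses in naive and tolerized cells rho was 0.850.

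Tolerized cells had lower levels of most members at rest. In T0 against N0, 71 of 81 genes were lower, against 12% of all genes tested, and none was higher, against 8.42%. The median log2 fold change was -0.33, or 1.26-fold lower, with quartiles of -0.39 and -0.28 and the median of all genes at -0.08. No gene reached 2-fold, where 2.61% of all genes tested were higher and 0.644% lower by as much. All T0 libraries lay below all N0 libraries for 62 genes, as for 21.8% of all genes tested. The count depended on the libraries, with 44 lower without T0 replicate 1, 46 without N0 replicate 3 and 76 without T0 replicate 3, and medians between -0.27 and -0.43 in all such fits.

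The number of genes called at rest changed with other features of the libraries. In fits on all libraries the median stayed between -0.23 and -0.36. T0 replicate 1 had both the lowest share of reads in the members and the highest erythroid and B cell marker sums of the T0 group, and the 8 neutrophil markers summed to 59 to 163 in N0 and 1684 to 3046 in T0. With the marker scores as covariates the median was -0.36, but only 2 genes passed. The neutrophil sums of N0 and T0 did not overlap, so this fit separates the marker scores from the state poorly. The share of all genes tested that passed in it is not given here. With sex as a covariate 42 genes passed, at a median of -0.29. Among female libraries alone, T0 replicate 3 against N0, the median was -0.18 and 6 genes were lower, in a fit where the T0 group is 1 library that is assumed to vary like the other groups. By library totals 47 genes were lower with a median of -0.23, where the median of all genes was 0.03. Relative to all genes the members were then at -0.26, against -0.25 in the TMM-scaled fit.

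The largest differences at rest were those of Rplp1, Rpl35 and Rps20. Rplp1 had 10992, 10957 and 12149 normalized counts in N0 and 6656, 7027 and 8712 in T0, a log2 fold change of -0.61 ± 0.08 (adjusted p = 2.04e-05). All T0 libraries were below all N0 libraries, and the highest was T0 replicate 3, from a female. Rpl35, a large subunit protein near the exit tunnel, was lower by 1.42-fold (-0.51 ± 0.07), and so was Rps20 (-0.50 ± 0.08). The smallest differences that passed were those of Rps15a (-0.22), Rpl18 (-0.24) and Rps13 (-0.26), and each was lost in at least 3 of the 6 fits without 1 library. Of the 10 genes that did not pass, 5 were standard subunits, namely Rpl24, Rpl36a, Rpl38, Rps27 and Rps28, with log2 fold changes between -0.16 and -0.27. The remaining 5 were the other members, between -0.22 for Rpl22l1 and 0.33 for Rps27l.

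After Ag the difference between the states was of like size. In TAg against NAg 71 genes were lower, against 18.5% of all genes tested, and none was higher, against 20.9%. The median log2 fold change was -0.31 with the median of all genes at 0.01, and the groups did not overlap for 77 lower genes, as for 22.9% of all genes tested. The lowest were Rps20 and Rps27a, at -0.50 and -0.49, and Rpl35a, at -0.49. Rps27a encodes ubiquitin fused to a small subunit protein. It had 8900, 8496 and 8399 normalized counts in NAg and 5889, 5873 and 6543 in TAg, with no overlap. By library totals 24 genes were lower and 1 higher, and with the marker scores as covariates 58 were lower. Relative to all genes the members were at -0.33 by library totals, against -0.32 in the TMM-scaled fit. Fits without 1 library gave 51 to 68 lower.

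After PI the difference had a wider range. In TPI against NPI, 74 genes were lower, against 19.7% of all genes tested, and 3 higher, against 18.2%, with a median of -0.41 and the median of all genes at -0.04. NPI and TPI libraries were all from males. The share of mitochondrially encoded reads was 2.14% to 2.58% in NPI and 1.27% to 1.34% in TPI, without overlap, and its part in the difference was not tested. The lowest were Rpl36a at -0.73 ± 0.10 and Rpl31 at -0.68 ± 0.07. Rpl31, a large subunit protein at the exit tunnel, had 7335, 7098 and 7272 normalized counts in NPI and 4646, 4430 and 4500 in TPI. Its annotated exons overlap those of Tbc1d8 on the opposite strand. The 3 higher genes were Rps27l, Rps19bp1 and Rpl7l1. With marker scores as covariates 45 genes were lower and 1 higher, at a median of -0.42. The groups did not overlap for 76 lower genes, as for 26.4% of all genes tested.

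As an interaction, the PI response differed between the states for 3 genes, where the difference was positive and passed for 12.7% of all genes tested and negative for 7.52%. N0 libraries were female, NPI and TPI libraries male and T0 libraries of both sexes, so sex enters this difference as well. Rpl7l1 responded more, by 0.59 ± 0.10 on the log2 scale (adjusted p = 0.000108), and kept this call in each of the 12 fits without 1 library. Rpl36a responded less, by -0.46 ± 0.14 (adjusted p = 0.024), and Rpl31 by -0.29 ± 0.10 (adjusted p = 0.039), and both calls were lost in most of those fits. By library totals the difference was negative and passed for 46 genes, with the median of all genes at -0.26 and that of the members at -0.27.

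Rplp0, the base of the stalk (chromosome 5, 116009476 to 116013736, plus strand), was the member with the most reads. It had 15346, 15195 and 15640 normalized counts in N0, 22650, 22470.0 and 23550.0 in NAg and 30007, 29749 and 30443 in NPI. In tolerized cells it had 10286, 11049 and 11876 in T0, 17100.0, 15089 and 17292 in TAg and 21763, 20236 and 21100 in TPI. The 6 groups were in the order T0, N0, TAg, TPI, NAg and NPI by their means. TAg replicate 2 lay below all N0 libraries and the other TAg libraries above them, so that these neighbours in the order overlapped. Its log2 fold changes were 0.57 and 0.58 after Ag, 0.97 and 0.93 after PI and -0.48, -0.47 and -0.52 between the states, each with an SE of 0.07. Rpsa, a small subunit protein also known as the laminin receptor precursor, had 0.56 and 0.55 after Ag, 0.97 and 0.95 after PI and -0.35 at rest. Rplp2 had 0.53 in both states after Ag, while its stalk partner Rplp1 had 0.21 ± 0.08 in naive and 0.41 ± 0.08 in tolerized cells.

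Rps6, the substrate of S6 kinase below mTOR, had 5419, 5375 and 5770 normalized counts in N0, 7584, 7311 and 7283 in NAg and 9925, 9189 and 9219 in NPI. Its log2 fold changes were 0.42 ± 0.08 after Ag and 0.77 ± 0.08 after PI in naive cells and 0.52 ± 0.08 and 0.65 ± 0.08 in tolerized cells. Rpl5 and Rpl11, which bind 5S rRNA and, when free, the p53 ligase Mdm2, rose by 0.56 and 0.81 after Ag and by 1.04 and 1.21 after PI in naive cells. Both were lower in T0 than in N0, by -0.35 and -0.28, and Rpl11 lost this call without N0 replicate 3, T0 replicate 1 or T0 replicate 2. The 4 X-linked members Rpl10, Rpl36a, Rpl39 and Rps4x had log2 fold changes of 0.64, 0.63, 0.25 and 0.27 in NAg against N0, where all 6 libraries were from females. In TPI against NPI, all from males, they were -0.46, -0.73, -0.57 and -0.57.

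**Figure D4:**
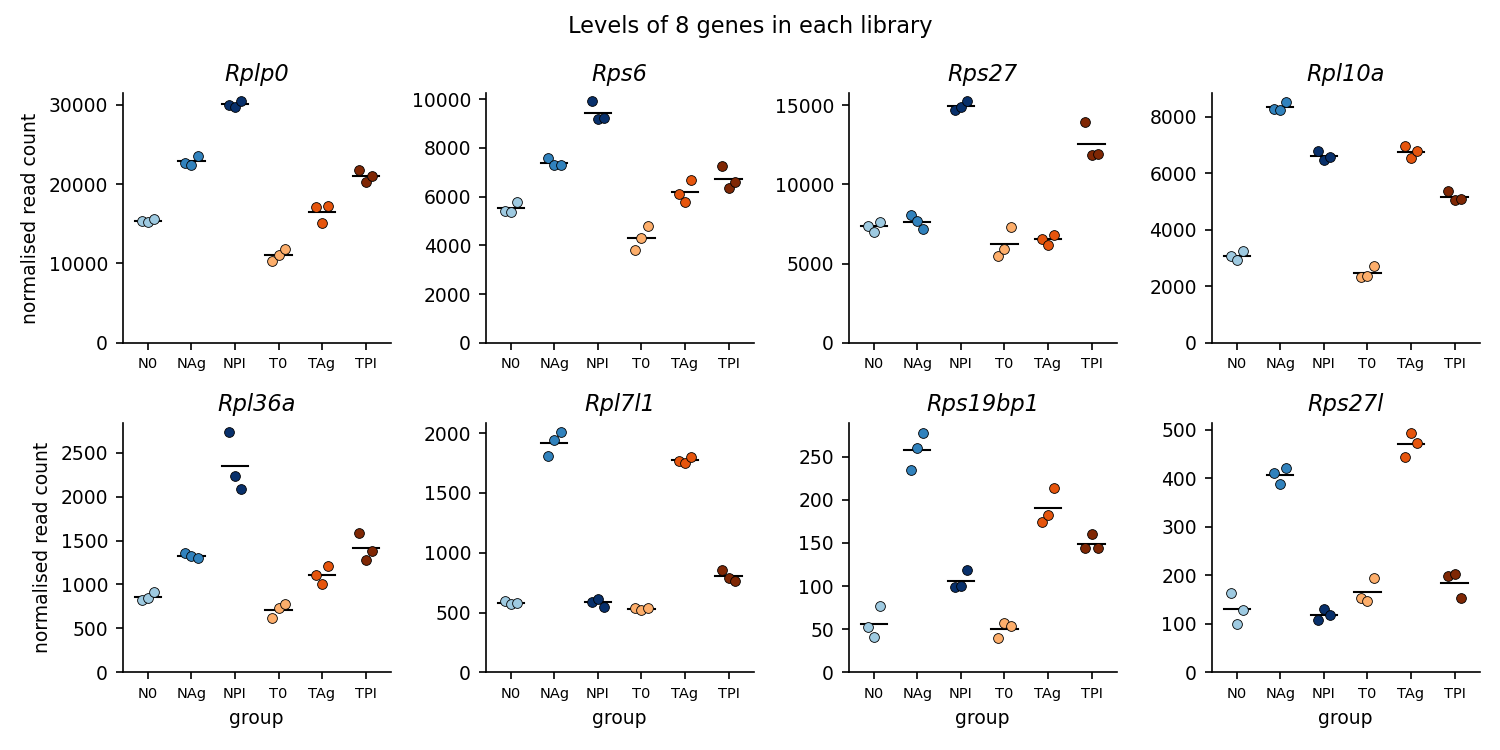
Normalized read count of 8 genes in each library (points) with the group mean (line), on axes that start at 0. Rplp0 and Rps6 rise after Ag and further after PI in naive cells, Rps27 rises after PI, and Rpl7l1, Rps19bp1 and Rps27l are highest after Ag, as is Rpl10a.

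The 5 members that are not standard subunits had patterns of their own. After Ag they took the 3 highest places of all 81 genes in both states, with Rps19bp1 at 2.18 ± 0.18, Rpl7l1 at 1.72 ± 0.07 and Rps27l at 1.64 ± 0.15 in naive cells. In tolerized cells these were 1.92 ± 0.18, 1.74 ± 0.07 and 1.51 ± 0.14. Rpl7l1 (chromosome 17, 46910856 to 46919605, minus strand, NCBIM37), a paralog of Rpl7, had 592, 571 and 582 normalized counts in N0 and 1807, 1941 and 2009 in NAg. In NPI it had 592, 615 and 548, a log2 fold change of 0.01 ± 0.07 (adjusted p = 0.949) whose sign turned in several alternatives. It had 537, 518 and 538 in T0, 1769, 1748 and 1804 in TAg and 858, 788 and 765 in TPI. The TPI libraries were therefore all above T0 and NPI and all below TAg. Rpl7 itself rose by 0.66 after Ag in both states and by 0.83 and 0.71 after PI.

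Rps19bp1 (chromosome 15, 80091044 to 80094736, minus strand), also known as an active regulator of the deacetylase SIRT1, had the fewest reads of the members. It had 52.5, 40.7 and 76.4 normalized counts in N0, 235, 260 and 277 in NAg and 98.8, 100 and 119 in NPI. In tolerized cells it had 39.8, 57.4 and 53.7 in T0, 174, 182 and 214 in TAg and 144, 160 and 144 in TPI. It was lower in TAg than NAg (-0.43 ± 0.16, adjusted p = 0.032) and higher in TPI than NPI (0.49 ± 0.17, adjusted p = 0.022), and either call was lost in at least 3 of 6 fits without 1 library. The difference of its PI responses did not pass, at 0.66 ± 0.26 (adjusted p = 0.073).

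Rps27l (chromosome 9, 66793893 to 66797323, plus strand), a paralog of Rps27 known as a p53 target, differed most from its partner. It had 163, 100 and 128 normalized counts in N0, 410, 388 and 421 in NAg and 108, 131 and 117 in NPI. T0 libraries had 153, 147 and 195, TAg libraries 444, 494 and 471, and TPI libraries 198, 203 and 154. It was thus high in the Ag groups and near its resting level after PI, with log2 fold changes of -0.14 ± 0.15 and 0.16 ± 0.14 that did not pass, while Rps27 was near its resting level after Ag and high after PI. Rps27l was higher in TPI than NPI (0.63 ± 0.15, adjusted p = 0.0015).

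Rpl22l1 and Rpl36al were closer to the standard subunits, but stood above most of them after Ag. In NAg against N0 the standard subunits had a median of 0.56, quartiles of 0.40 and 0.65 and a highest value of 1.44. Rpl22l1, the paralog of Rpl22, which is needed for the development of αβ T cells, rose by 1.04 ± 0.09 after Ag and 1.06 ± 0.09 after PI in naive cells, and Rpl22 by 0.44 ± 0.09 and 1.08 ± 0.09. Rpl36al, which encodes nearly the same protein as Rpl36a, rose by 1.16 ± 0.10 and 0.88 ± 0.10, and Rpl36a by 0.63 ± 0.10 and 1.45 ± 0.10. In TPI against NPI the paralogs were at -0.09 and -0.14 and did not pass, while Rpl22 was at -0.45 and Rpl36a at -0.73. Reads of such paralogs may be split by the counting.

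Other genes of ribosome production were compared by lists. The first held 21 other TOP mRNAs, among them those of elongation and initiation factors. In NAg against N0 17 rose and 1 fell (median 1.03), where 32.1% of all genes tested rose and 33.4% fell. In NPI against N0 20 rose and none fell (median 0.96), where 28.6% of all genes tested rose and 32.7% fell. Fau, whose product includes a small subunit protein, had log2 fold changes of 0.13 ± 0.08 after Ag, which did not pass, and 1.10 ± 0.08 after PI in naive cells. At rest 15 of the 21 were lower in tolerized cells and 1, Vim, was higher, with a median of -0.27. There 12% of all genes tested were lower and 8.42% higher. Npm1, a nucleolar chaperone, and the importin Ipo5 rose most after Ag, by 2.82 and 3.44.

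All 34 ribosome biogenesis genes rose after Ag in both states, with medians of 3.08 (8.43-fold) and 2.84 (7.18-fold), led by Rrp1b (3.91) and Polr1b (3.84) in naive cells, the latter a subunit of RNA polymerase I. Of all genes tested, 32.1% rose and 33.4% fell in NAg against N0, and 29.9% rose in TAg against T0. After PI, 25 rose and 6 fell in naive cells, with a median of 0.60, and 27 rose and 4 fell in tolerized cells, with a median of 1.27. Of all genes tested, 28.6% rose and 32.7% fell after PI in naive cells, and 32.0% and 36.3% in tolerized cells. In TAg against NAg 32 of the 34 were lower (median -0.42), as most members were and 18.5% of all genes tested. In TPI against NPI 19 were higher and 5 lower (median 0.23), where the members' median was -0.41. There 18.2% of all genes tested were higher and 19.7% lower. Chaperones and export factors of ribosomal proteins gave 21 higher and 1 lower of 22 in NAg against N0 (median 2.05), the lower being the exporter Xpo1 (-1.14). In NPI against N0 14 were higher and 5 lower (median 0.85), where 28.6% of all genes tested rose and 32.7% fell.

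**Figure D5:**
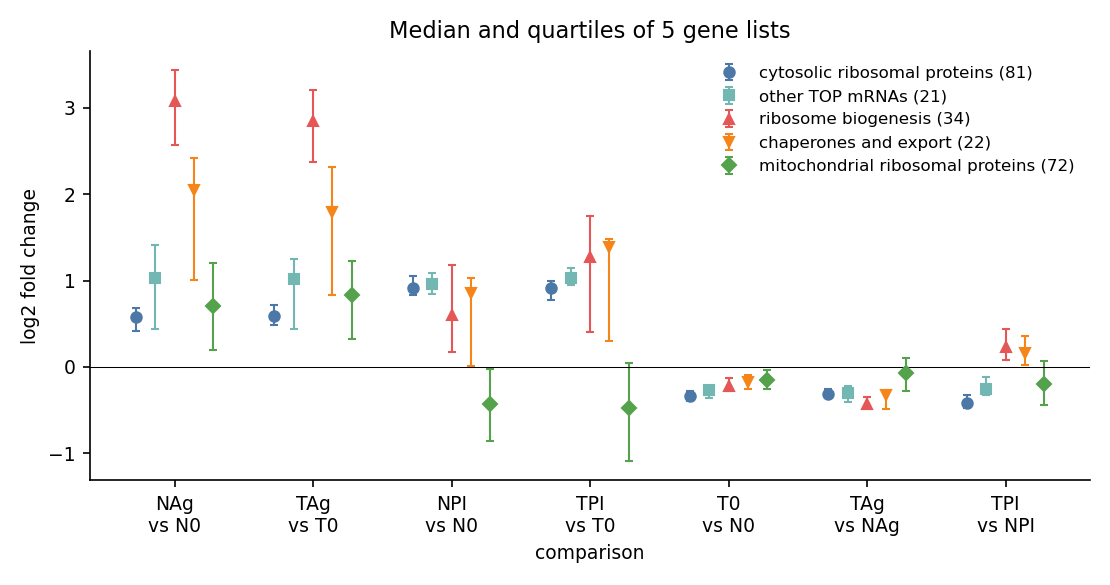
Median (symbol) and quartiles (bars) of the log2 fold changes of 5 gene lists in 7 comparisons, with the number of genes in each list in brackets. Ribosome biogenesis genes have medians near 3 after Ag, the 81 ribosomal protein genes 0.57 and 0.59, and mitochondrial ribosomal protein genes lie above 0 after Ag and below 0 after PI.

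Mitochondrial ribosomal proteins serve the separate ribosome of the mitochondrion. Of 72 such genes 50 rose and 7 fell in NAg against N0 (median 0.70), and 56 rose and 1 fell in TAg against T0 (median 0.84). Of all genes tested, 32.1% rose and 33.4% fell in the former, and 29.9% and 29.8% in the latter. In NPI against N0 10 rose and 44 fell (median -0.43), where 28.6% of all genes tested rose and 32.7% fell. In TPI against T0 13 rose and 42 fell (median -0.48), where 32.0% of all genes tested rose and 36.3% fell. The cytosolic genes had medians of 0.91 in both. The difference between the lists was not tested.

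Of 23 genes of the mTOR, S6 kinase and LARP1 pathway, 14 rose and 5 fell in NAg against N0 (median 0.54), where 32.1% of all genes tested rose and 33.4% fell. In NPI against N0 8 rose and 8 fell (median -0.05), shares near those of all genes tested, of which 28.6% rose and 32.7% fell. Larp1, whose product binds TOP mRNAs, had 2999, 2996 and 2986 normalized counts in N0 and 25834, 28995 and 26385 in NAg, a log2 fold change of 3.18. Myc, a transcription factor that drives ribosome production, rose by 5.34 after Ag and 4.58 after PI. The translation inhibitor Pdcd4 fell by 1.69 after Ag. In TAg against NAg Myc was at -0.74 and Larp1 at -0.68, and in TPI against NPI Myc was at 0.46. At rest 8 of the 23 were lower in tolerized cells and 1, Eif4ebp1, was higher. There 12% of all genes tested were lower and 8.42% higher, and Myc was at -0.05.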

How the data were processed

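RNA-seq read counts per gene were analysed for 18 libraries of rRNA-depleted total RNA. The authors aligned reads to mm9 with TopHat2 2.1.1 and counted them with HTSeq 0.9.1, and deposited whole-number counts without normalization. Handling of strand, overlapping genes and reads that fit several places is not given in the sources used here. Groups were taken from the sample labels. Members and gene lists were chosen with earlier results of these data known. Counts were scaled by TMM and fitted with edgeR 4.0.16 (R 4.3.3) as 6 group means by robust quasi-likelihood, over 17240 genes with a mean normalized count of at least 3 in a group. A gene was called at a Benjamini-Hochberg adjusted p under 0.05, and the 2-fold count also needed a mean above 50 in the higher group. Normalized counts are counts divided by TMM size factors. SE is the log2 fold change divided by the square root of F. Named were the 3 highest and 3 lowest called members of each comparison, the stalk genes and Rpsa, Rps6, Rpl5, Rpl11, Rps27a, X-linked members, the 5 other genes with their partners, and at most 2 called genes at either end of a list. Rpl10a, members that did not pass, Rpl37 and Rps13 as the largest differences in response, and Fau were named after their values were seen. Some genes under this rule are not reported here. Tract windows came from RefSeq. Counts were simulated for T0 against N0 from the fitted dispersions, with changes only in genes at high counts and no sex or marker differences. There 71 of 100 genes changed by 0.4 and 98 of 100 changed by 1 (log2) were recovered, with 4 false calls among 16352. Whether replicates were separate mice is not stated for every group, and p-values measure the spread between libraries. Alternatives were DESeq2 1.42.0, other scalings and filters, marker or sex covariates, a replicate block and leaving out each library. The fits within 1 sex were added after seeing the data. Correlations of same-numbered libraries were between -0.20 and 0.11, so the numbers were not taken as pairs.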

Additional observations from a re-analysis of the deposited data

Results flagged for a closer look

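The response to PI differed between tolerized and naive cells for 3 of the 81 genes in a test of the difference itself (edgeR's quasi-likelihood test, adjusted over all genes tested). Rpl7l1 responded more strongly in tolerized cells, with a difference of 0.59 on the log2 scale. Sex enters these differences too, since NPI libraries were male and N0 libraries female, while T0 held both sexes. Rpl36a had a difference of -0.46 and Rpl31 one of -0.29. The Rpl36a call was lost in 7 and the Rpl31 call in 10 of the 12 fits without 1 library, and the Rpl7l1 call in none, where its difference was between 0.55 and 0.63.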

How the results depend on the processing

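The T0 against N0 count depended most on the fit, and PI, culture and sex cannot be told apart in NPI against N0. In TPI against T0, PI and culture cannot be told apart. By library totals in place of TMM, members higher and lower were 43 and 9 in NAg against N0, 1 was lower in TAg against T0 and 2 in NPI against N0, 26 and 7 were higher and lower in TPI against T0, 1 and 47 in T0 against N0 and 1 and 24 in TAg against NAg, with 0 members at 2-fold in NPI against N0 and 0 in TPI against T0. The difference of the responses, tolerized minus naive, was then positive for 3 members after Ag and negative for 46 after PI. T0 against N0 gave 41 lower members from these groups alone, 2 with marker covariates, 42 with sex as a covariate and 6 in females, and TPI against NPI gave 45 lower and 1 higher with marker covariates. Members at 2-fold in males were 11 in TAg against T0 and 43 in TPI against T0. Male TAg and female T0 are 1 library each, assumed to vary like the other groups. A negative difference after PI held for 1 member without the filter, 4 with only the groups compared, 1 with marker and 1 with sex covariates. Without the 50 other genes with the most counts the share was 4.23% in N0, 4.66% in NAg, 5.94% in NPI, 3.54% in T0, 4.16% in TAg and 4.01% in TPI. The cause was not tested.

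With 1 library left out, higher members were 66 to 75 in NAg against N0, 73 to 79 in TAg against T0, 79 in all fits of NPI against N0, 80 in all of TPI against T0, 0 to 1 in T0 against N0 and 2 to 3 in TPI against NPI. Lower members were 44 to 76 in T0 against N0, 51 to 68 in TAg against NAg and 68 to 73 in TPI against NPI. Members at 2-fold were 5 to 6 in NAg against N0 and in TAg against T0, 18 to 31 in NPI against N0 and 4 to 30 in TPI against T0. The difference after Ag was positive for 0 to 8 members (8 without T0 replicate 3), and that after PI positive for 1 to 2 and negative for 0 to 3.

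Signs turned by library totals in NAg against N0 for Rpl17 (-0.20), Rpl39 (-0.15), Rplp1 (-0.19), Rps23 (-0.17), Rps27 (-0.35) and Rps4x (-0.13), in TAg against T0 for Rpl17 (-0.10), Rpl39 (-0.13), Rps21 (-0.066) and Rps27 (-0.26), in NPI against N0 for Rpl7l1 (-0.57), in TPI against T0 for Rpl37a (-0.27), Rpl7 (-0.088), Rpl7l1 (-0.20), Rps16 (-0.23), Rps27a (-0.054), Rps27l (-0.63), Rps4x (-0.21) and Rps6 (-0.15), and in TAg against NAg for Rpl22 (0.018) and Rpl7l1 (0.067). With marker covariates they turned for Rpl7l1 (-0.10) and Rps27l (0.26) in NPI against N0, Rpl36al (0.082) and Rps27l (-0.00013) in T0 against N0 and Rpl36al (0.072) in TPI against NPI, with sex as a covariate for Rpl7l1 (-0.00076) and Rps27l (0.025) in NPI against N0, and in females, with 1 T0 library, for Rps21 (-0.025) and Rps27 (-0.20) in TAg against T0 and Rpl36al (0.075) in T0 against N0. With 1 library left out, ranges crossed 0 for Rps27 in NAg against N0 (-0.033 to 0.10) and TAg against T0 (-0.055 to 0.16), Rpl7l1 (-0.054 to 0.052) and Rps27l (-0.34 to 0.0086) in NPI against N0, Rps19bp1 in T0 against N0 (-0.36 to 0.10) and Rpl22l1 in TPI against NPI (-0.14 to 0.0089), none of which had been called. With the replicate block 77 members were higher in TAg against T0 and 71 lower in T0 against N0, and 1 of 180 named results lost its call. Under DESeq2 none did.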
